A study of Macaca mulatta with 26 samples.

Results

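The circRNAs described here were the exonic circles of 5 to 7 exons in rhesus monkey skeletal muscle. A circRNA was taken as a back-splice junction together with its list of exons, and it was kept when its junction reads summed to 2 or more over the 24 libraries sequenced to approximately 20000000 reads. This rule gave 1468 circRNAs of 8140 with the same read minimum, and they held 12702 of the 99083 junction reads. A further 2412 circles of 5 to 7 exons had a single read in all and were not kept, whereas 613 of the 1468 had exactly 2 reads.

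Vastus lateralis, a large thigh muscle, was taken from 6 young monkeys aged 0.003 to 6.0 years, 11 middle-aged monkeys aged 11.3 to 16.93 years and 7 old monkeys aged 25.7 to 40.9 years, with 1 library per monkey. No genotype or drug distinguished the groups, all animals received a normal diet without restriction, and 3 of the 6 young animals were under 1 year old. All total RNA was digested with RNase R, an exonuclease that removes linear RNA, before sequencing. In addition, 2 unreplicated libraries went to approximately 100000000 reads, 1 from a young animal (0.005 years) and 1 from an old animal (40.1 years).

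An exonic circRNA forms when the splicing machinery joins the end of a downstream exon to the start of an upstream exon of the same transcript. A read across this back-splice junction identifies the circle, but the exons between its ends are not seen in that read and are inferred from the linear transcripts assembled in the same sample. Having no free ends, circRNAs resist exonucleases, which makes them stable, and several are known to bind microRNAs or RNA-binding proteins. Skeletal muscle expresses many long, multi-exon genes, and ageing muscle loses mass and strength.

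The 24 libraries held 822 to 11561 junction reads (median 3924), so the smallest share that 3 reads could show lay between 0.0259% and 0.365%. The library with 822 reads, of a middle-aged monkey aged 14.4 years, stood apart, with 23.5% of its reads on intronic circles against a median of 6.99% over all libraries. Host transcripts were named in the data only by Ensembl transcript or by assembled transcript, without gene symbols, so the muscle origin of the RNA could not be checked by marker genes here. Levels are given as junction reads per 1000 junction reads of the library, written as reads per 1000.

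Of the 1468 circRNAs, 752 had 5 exons, 422 had 6 and 294 had 7. Their median spliced length was 667 nt (213 to 4528 nt), between the median of 404 nt for the 2873 circles of 3 or 4 exons and that of 1161 nt for the 579 circles of 8 or more. Median length rose with exon number, from 598 nt at 5 exons to 704.5 nt at 6 and 833 nt at 7, while reads fell from 6839 to 3460 and 2403 in total. On the genome, the circles spanned 917 to 246828 nt (median 15857 nt), most of which was intron. The shortest circle, at chr5:33902974-33906711 on the plus strand, joined exons of 69, 19, 25, 27 and 73 nt and had 2 reads. The longest, at chr1:134037014-134041863 on the minus strand, had 2 reads as well and owed its 4528 nt to a first exon of 3168 nt and a last exon of 1240 nt.

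The 8350 exons of these circles had a median length of 114 nt. First and last exons, whose outer ends form the junction, had medians of 120 and 122 nt, and the inner exons a median of 110 nt. Microexons of 27 nt or less numbered 136, while 68 circles carried an exon of 500 nt or more. There were 35 exons under 10 nt, down to 1 nt, in 34 circles. Exon lists come from the host transcripts, so inner exons of this size need not have been seen in the junction reads themselves. Spliced length was a multiple of 3, as a circle read through without a change of frame would need, in 36.0% of these circles, in 37.0% of those with 3 or 4 exons and in 38.2% of those with 8 or more. In 46 circles every exon was a multiple of 3, among them mmu_circ_014028, with exons of 72, 66, 84, 60, 45, 45 and 129 nt, and a circle at chr12:15145944-15153551, with exons of 111, 114, 105, 105 and 105 nt.

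Long introns flanked the circles. The introns beside the junction had medians of 7699 nt upstream and 6953.5 nt downstream, and the 6882 introns inside the circles had a median of 2186 nt. Of the 1458 circles with an intron listed on both sides, 1006 (69.0%) had a flanking intron longer than any intron within the circle. When the median was taken within each library, the shorter of the 2 flanking introns measured 3909.5 to 6849 nt and the internal introns, averaged per circle, 2889 to 3731 nt. The shorter flanking intron was the longer of these in 24 of 24 libraries, by 2147 ± 621 nt (SD, n = 24). This comparison was not planned and was added after the data were seen. A permutation test that flipped the sign of each library's difference gave p = 2e-05, the smallest value that 100000 resamples can give, and libraries share many of the same circles.

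**Figure D1:**
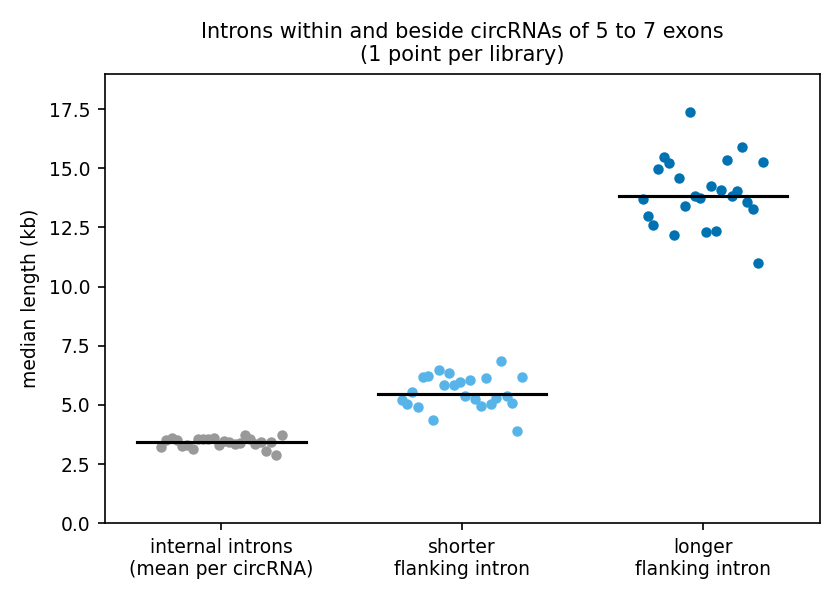
Median intron length (kb, vertical axis) within and beside circRNAs of 5 to 7 exons, with 1 point for each of the 24 libraries and a line at the median of the points. Internal introns sit between 2889 and 3731 nt, below every value for the shorter flanking intron (3909.5 to 6849 nt) and the longer flanking intron (10993.5 to 17371 nt).

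The 1468 circRNAs came from 1322 back-splice junctions, which lay in 1005 separate stretches of overlapping circles on the same strand. In 751 of these stretches there was 1 circle, and 20 stretches held 5 or more. The richest, chr18:72411714-72587246 on the plus strand, held 16 circles on 10 junctions with 314 reads. The most reads, 1209, fell on 5 circles of 3 junctions at chr2:102990361-103021852, followed by 642 on 3 circles at chr20:45697009-45744767. Of the 1322 junctions, 932 (70.5%) shared an end with another exonic junction, against 56.8% of 2729 junctions of 3- or 4-exon circles and 77.5% of 506 junctions of circles with 8 or more exons. Chromosome 1 held the most circles (159). On chromosome 18, 27.5% of the exonic circRNAs had 5 to 7 exons, and on the X chromosome 27.5%, against 18.9% over all 7771 exonic circRNAs, and these shares are descriptions without a test.

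An Ensembl transcript was given as host for 673 of the circles, with 578 different transcripts in all. Reads of a host are counted here only in the libraries that named it, since other libraries could give the same circle another host. ENSMMUT00000030665 on chromosome 18 had the most circles, with 8 circles and 164 such reads. ENSMMUT00000030179 on chromosome 1 followed with 6 circles but 21 such reads, and ENSMMUT00000020968 on chromosome 5 with 5 circles and 68. One circle of the latter, mmu_circ_014509, had 112 reads when all libraries were counted. Counted in this way, reads and number of circles did not run in parallel among these 3 hosts. The remaining circles were assigned to transcripts assembled from these samples.

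Few of the circles were seen widely. Reads were found in 1 library for 273 circles and in 2 libraries for 587, while 45 were found in 12 or more libraries and 5 in 20 or more. Read totals ran from 2 to 609 with a median of 3, and 14 circles had 100 or more. The first 3 circles held 13.0% of all reads on circles of 5 to 7 exons. The 20 circles with 2 or more reads in 12 or more libraries, the only ones tested singly for age at this level of detection, held 3804 reads or 29.9%. By age group, 363 circles had reads in all 3 groups, with a median of 9 reads. Another 485 had reads in 1 group, with a median of 2 reads. A circle of 2 reads cannot reach all 3 groups, and the share over all circRNAs is not given here. The count is therefore not read as a trait of circles of 5 to 7 exons.

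**Figure D2:**
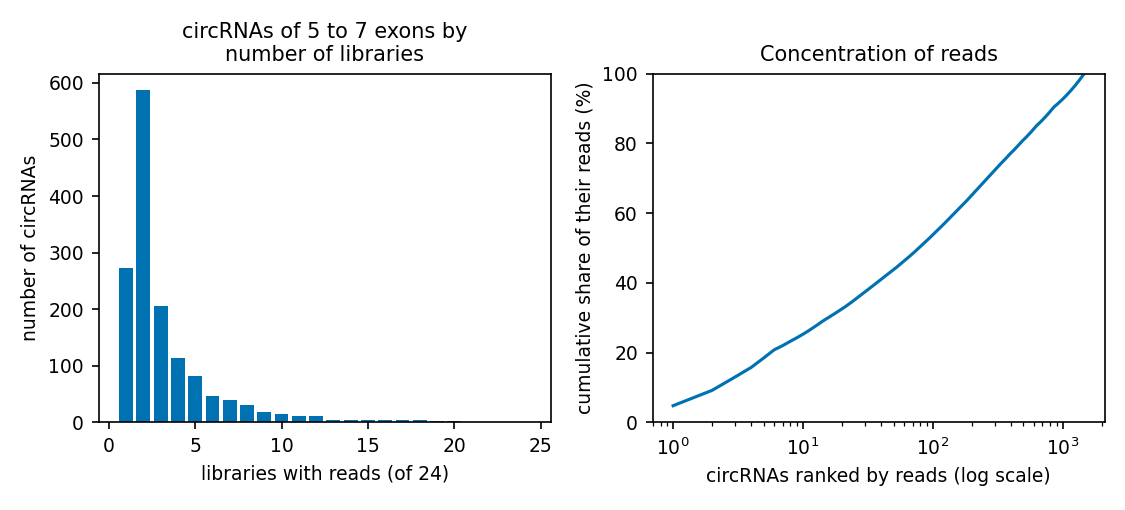
Left, number of circRNAs of 5 to 7 exons (vertical axis) by the number of libraries with reads (horizontal axis, of 24). Right, cumulative share of their reads (%) against rank by reads on a log axis. Most circles were seen in 1 or 2 libraries (273 and 587), and the 10 with the highest mean levels, a ranking other than that plotted, held 25.1% of the reads.

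The most abundant circle by mean level was mmu_circ_010392, at chr2:102990361-103021852 on the minus strand, with 6 exons of 63, 981, 185, 119, 189 and 189 nt. Its 609 reads came from 20 libraries, at 4.29 to 13.3 reads per 1000 in the young (median 7.93), 0 to 16.6 in the middle-aged (median 6.75) and 0 to 10.5 in the old (median 5.96). The groups overlapped over nearly their whole range. A second circle of the same stretch, mmu_circ_010390, ended at chr2:103015114 and lacked the 63-nt exon but had the other 5. It reached 3.54 to 14.2 reads per 1000 in the young (median 5.30), 0 to 15.5 in the middle-aged (median 6.02) and 0 to 8.51 in the old (median 3.32). Its highest young value was that of the monkey aged 6.0 years. Within libraries, the longer circle was the more abundant in 14, the shorter in 5, and the levels were equal in 5, of which 4 had neither. The difference was 1.42 ± 2.42 reads per 1000 (SD, n = 24), given without a test because this pair and the next, which share an end, were chosen after their values were seen.

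The other pair lay on chromosome 20, within the Ensembl transcript ENSMMUT00000006667. mmu_circ_011903, at chr20:45697009-45715127 with exons of 90, 139, 100, 108 and 81 nt, was the only circle of 5 to 7 exons with reads in all 24 libraries. It measured 2.58 to 7.29 reads per 1000 in the young (median 3.78), 2.43 to 5.52 in the middle-aged (median 3.39) and 1.63 to 5.35 in the old (median 3.03). mmu_circ_011904 started at the same base, ran to chr20:45744767 and added a sixth exon of 116 nt beyond an intron of 29524 nt. Its level was 1.29 to 5.46 reads per 1000 in the young (median 3.49), 0 to 4.85 in the middle-aged (median 2.68) and 0 to 4.56 in the old (median 2.23). Here the shorter circle was the more abundant, in 18 of 24 libraries, by 0.967 ± 1.60 reads per 1000 (SD, n = 24).

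mmu_circ_009432, at chr18:14771495-14785401 on the plus strand, had exons of 172, 130, 105, 67 and 205 nt and a host transcript ENSMMUT00000014297. It gave 561 reads in 19 libraries and was at 0 to 12.8 reads per 1000 in the young (median 5.97), 0 to 11.3 in the middle-aged (median 7.59) and 0 to 12.5 in the old (median 5.42). All 5 libraries at 0 had reads on the same junction with another exon list, as described below for this junction. mmu_circ_014028, at chr4:53822249-53875750 in ENSMMUT00000017929, had reads in all 6 young libraries, at 2.89 to 8.71 reads per 1000 (median 5.91). It lay between 0 and 6.21 in the middle-aged (median 2.18) and between 0 and 6.02 in the old (median 2.77), below the young median in 10 of 11 and 6 of 7 libraries.

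Of the remaining circles with the highest mean levels, mmu_circ_012791 at chr3:188422619-188441697 joined 6 exons in 410 nt. It was at 0.964 to 3.01 reads per 1000 in the young (median 1.81), 0 to 6.62 in the middle-aged (median 2.09) and 0 to 2.63 in the old (median 0, with reads in 3 of 7 libraries). mmu_circ_009844, with 7 exons in 549 nt at chr18:72438949-72524151, had reads in 3 of 6 young libraries (0 to 3.21, median 0.947 reads per 1000), 6 of 11 middle-aged (0 to 3.01, median 1.31) and 5 of 7 old (0 to 3.25, median 1.96). The other 12 circles with at least 2 reads in 12 libraries had mean levels of 0.400 (mmu_circ_000392) to 1.36 reads per 1000 (mmu_circ_002165). One of them, mmu_circ_003415 on chromosome 11, was listed with an exon of 5 nt.

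Circles outside that group could reach high levels in part of the libraries. The 5-exon circle at chr1:212586000-212604623, of 315 nt, had 125 reads in 11 libraries, up to 1.72 reads per 1000 in the young, 3.52 in the middle-aged and 3.63 in the old. A 6-exon circle of 713 nt at chr14:24950336-24956328 had 121 reads in 11 libraries, at up to 7.29 reads per 1000. It was 1 of 6 exon lists for the same junction. The third by reads, a 7-exon circle of 944 nt at chr12:30108128-30136429, had 107 reads in 9 libraries, and 92 of the reads were in 4 young libraries.

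The exon list of a junction varied between libraries. At 270 of the 1322 junctions (20.4%) more than 1 list was found, and up to 8. No library gave more than 1 list for a junction, so that within a library all reads of a junction went to 1 circle. These 270 junctions held 9172 reads, of which 69.2% were on lists of 5 to 7 exons with 2 or more reads. For the junction of mmu_circ_009432, 3 libraries listed 4 exons without the 105-nt exon (218 reads), 1 library listed 3 exons (35 reads) and 1 listed 4 exons with an exon of 71 nt (15 reads). Summed over its lists, the junction was present in 24 of 24 libraries with 829 reads, at 8.10 ± 3.31 reads per 1000 (SD, n = 24), against 6.08 ± 4.28 for the 5-exon circle alone. The junction of mmu_circ_010392 was listed with an additional exon of 123 nt in 2 libraries (68 reads), and so was that of mmu_circ_010390 (39 reads). Summing the lists brought both junctions from 20 to 22 libraries. The junction of mmu_circ_009844, described because it had 4 lists of 5 to 7 exons, rose from 14 to 21 libraries. There the 7-exon list held 155 reads and 2 lists of 5 exons and 1 of 6 exons held 26, 11 and 19. Levels of a circle are thus lower bounds for its junction, and a 0 does not show that the junction was not used.

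**Figure D3:**
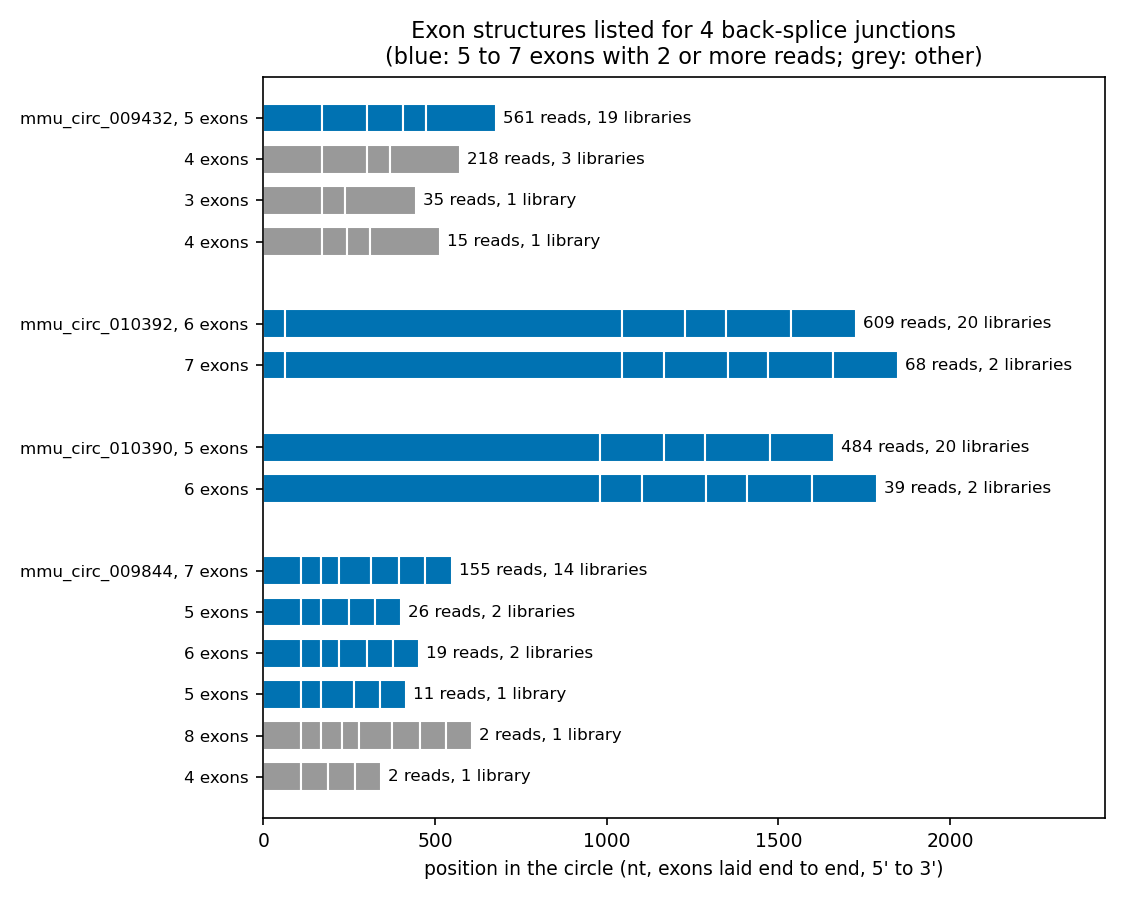
Exon lists of 4 back-splice junctions, grouped from top to bottom, with the exons drawn to scale end to end (horizontal axis, nt) and the reads and libraries of each list beside it, over 24 libraries. Blue lists are the circRNAs of 5 to 7 exons with 2 or more reads and grey lists are others of the same junction, such as the 4-exon list with 218 reads in 3 libraries under mmu_circ_009432.

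Across the 20 circles and 24 libraries there were 124 zeros among 480 values. In 34 of these the junction had reads on another exon list. In 21, which fell in 7 of the 20 circles, 10 or more reads would have been counted at the median level of the libraries that listed the circle. mmu_circ_010392, for example, was at 0 in 4 libraries, 3 of which would have held 10 or more reads and 2 of which had reads on the other list. A 0 means that the circle was not listed for a library, and whether its reads were absent or not called was not tested.

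The share of junction reads on circles of 5 to 7 exons was compared between age groups, the comparison for which the monkeys were sampled. It was 12.5% to 15.3% in the young libraries (median 13.6%), 4.26% to 15.7% in the middle-aged (median 13.4%) and 8.997% to 16.2% in the old (median 12.0%). The ranges overlapped, although 6 of the 7 old libraries lay below the young median. The mean share was 13.9% ± 1.13 (SD, n = 6) for young monkeys, 12.6% ± 3.18 (SD, n = 11) for middle-aged monkeys and 12.1% ± 2.16 (SD, n = 7) for old monkeys. Old differed from young by -1.79 percentage points (exact permutation test, two-sided, p = 0.0950, adjusted p = 0.285), middle-aged from young by -1.34 (exact p = 0.382, adjusted p = 0.573) and old from middle-aged by -0.454 (exact p = 0.767). The lowest share, 4.26%, was that of the library with 822 reads and 23.5% intronic reads. Without it the middle-aged mean was 13.4% ± 1.67 (SD, n = 10), middle-aged differed from young by -0.509 percentage points (exact permutation p = 0.521) and old from middle-aged by -1.28 (exact p = 0.185).

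**Figure D4:**
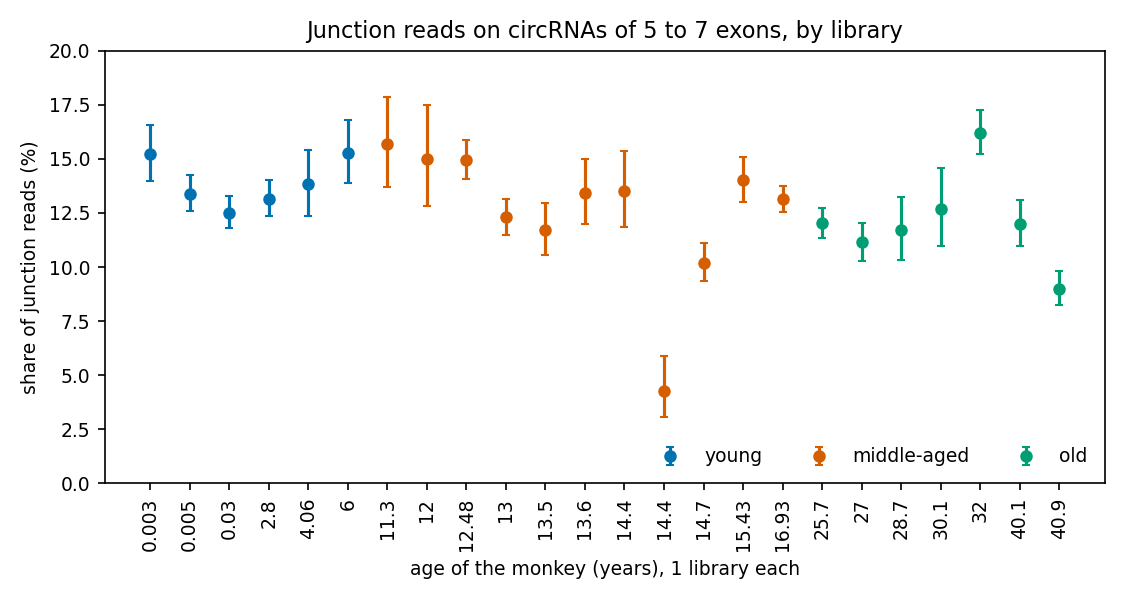
Share of junction reads on circRNAs of 5 to 7 exons (%, vertical axis) in each of the 24 libraries, ordered by age in years, with 95% Wilson intervals that cover counting error only. Shares lie between 8.997% and 16.2% in all libraries but 1, a middle-aged library of 14.4 years at 4.26%, and the 3 age groups overlap.

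Over all 24 libraries, the share followed neither depth (Pearson r = 0.033, permutation p = 0.876, adjusted p = 0.876; Spearman rho = -0.122, permutation p = 0.569, adjusted p = 0.759; r = 0.049 without the 2 libraries farthest from the median depth) nor age beyond the correction. Against age, Pearson r was -0.285 (permutation p = 0.179, adjusted p = 0.484) and Spearman rho was -0.444 (permutation p = 0.0304, adjusted p = 0.243, over 8 coefficients in the family), and r was -0.150 without the 2 oldest monkeys. The ages fall into 3 separate groups, so the relation was also taken within each. Pearson r was then 0.402 in the young (n = 6, exact permutation p = 0.400), -0.340 in the middle-aged (n = 11, permutation p = 0.308) and -0.290 in the old (n = 7, exact permutation p = 0.542). The corresponding Spearman coefficients were 0.257 (exact permutation p = 0.658), -0.528 (permutation p = 0.0974) and -0.143 (exact permutation p = 0.783), and the lowest adjusted p over these 6 coefficients was 0.584.

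The number of circles seen depends on depth, with 26 to 434 of the 1468 in a library. Reduced to 822 reads by expectation, the young libraries held 68.2 to 84.4 circles (median 71.4), the middle-aged 26 to 77.4 (median 68.2) and the old 51.1 to 88.1 (median 67.3). The mean number was 73.5 ± 5.82 (SD, n = 6) for young monkeys, 65.7 ± 14.2 (SD, n = 11) for middle-aged monkeys and 68.5 ± 11.2 (SD, n = 7) for old monkeys. The differences were -5.02 circles for old against young (exact permutation test, p = 0.340), -7.79 for middle-aged against young (exact p = 0.239) and 2.76 for old against middle-aged (exact p = 0.714), with adjusted values of 0.510 or more. Without the library of 822 reads, middle-aged differed from young by -3.81 circles (exact permutation p = 0.217) and old from middle-aged by -1.21 (exact p = 0.775).

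Single circles were then compared between age groups by edgeR's quasi-likelihood test over all 218 circRNAs that 12 or more libraries listed with 2 or more reads, of which 20 had 5 to 7 exons. None of the 20 passed an adjusted p of 0.05 in any comparison, against 0.0% of all tested circRNAs for old against young, 0.0% for middle-aged against young and 0.459% for old against middle-aged. At an unadjusted p under 0.05 by the same edgeR test there were 2, 2 and 0 of the 20, and 12, 15 and 11 of the 218 (5.50%, 6.88% and 5.05%). DESeq2 called 0, 1 and 0 of the 20 at an adjusted p of 0.05, against 0.0%, 0.459% and 0.459% of all. The median log2 fold change of the 20 circles was -0.37 for old against young (15 of 20 negative), 0.01 for middle-aged against young (10 of 20) and -0.39 for old against middle-aged (14 of 20). Over all 218 the medians were 0.00, 0.04 and -0.10, with 109, 103 and 123 negative (50.0%, 47.2% and 56.4%). The 20 include circles that share an end, so their signs are not independent, and the counts of signs were not tested.

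mmu_circ_002165, a 5-exon circle of 484 nt at chr1:98173778-98202787, had the smallest p of the 20 between middle-aged and young. It had reads in 2 of 6 young libraries (0 to 0.964, median 0 reads per 1000), 10 of 11 middle-aged (0 to 5.52, median 1.84) and 6 of 7 old (0 to 2.02, median 0.990). The young libraries lay low and the middle-aged high, with overlap at 0 and between 0.816 and 0.964. The log2 fold change was 2.68 ± 0.74 (SE; edgeR adjusted p = 0.162), and DESeq2 gave 2.56 with an adjusted p of 0.0257. Both old against young (1.70 ± 0.78, edgeR adjusted p = 0.706) and old against middle-aged (-0.98 ± 0.60, edgeR adjusted p = 0.8291) missed the threshold. Without the 3 young monkeys under 1 year, the log2 fold change was 1.57 for middle-aged against young (edgeR adjusted p = 0.973) and 0.59 for old against young (edgeR adjusted p = 0.977).

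mmu_circ_014028, described above for its high level in the young, followed, at a log2 fold change of -1.61 ± 0.61 (SE) for middle-aged against young (edgeR adjusted p = 0.510) and -1.13 ± 0.66 for old against young (edgeR adjusted p = 0.898). The former was -0.98 without the young monkeys under 1 year (edgeR adjusted p = 0.973). For old against young the smallest p belonged to mmu_circ_011216, a 6-exon circle of 849 nt on chromosome 2. It had reads in 4 of 6 young libraries (0 to 0.501, median 0.331 reads per 1000) and in 7 of 7 old (0.542 to 1.52, median 0.808). The levels correspond to few reads (64 in all 24 libraries), and the log2 fold change of 1.69 ± 0.77 (SE) had an edgeR adjusted p of 0.706. mmu_circ_014509 on chromosome 5, with 5 exons in 488 nt, had medians of 1.48 reads per 1000 in the young, 1.04 in the middle-aged and 1.52 in the old, and a log2 fold change of -0.37 ± 0.79 (SE) for old against young (edgeR adjusted p = 0.984). For old against middle-aged, the lowest p of the 20 was that of mmu_circ_012791, at -1.50 ± 0.76 (SE; edgeR adjusted p = 0.736), and 5 of its 6 zeros had reads on another exon list.

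**Figure D5:**
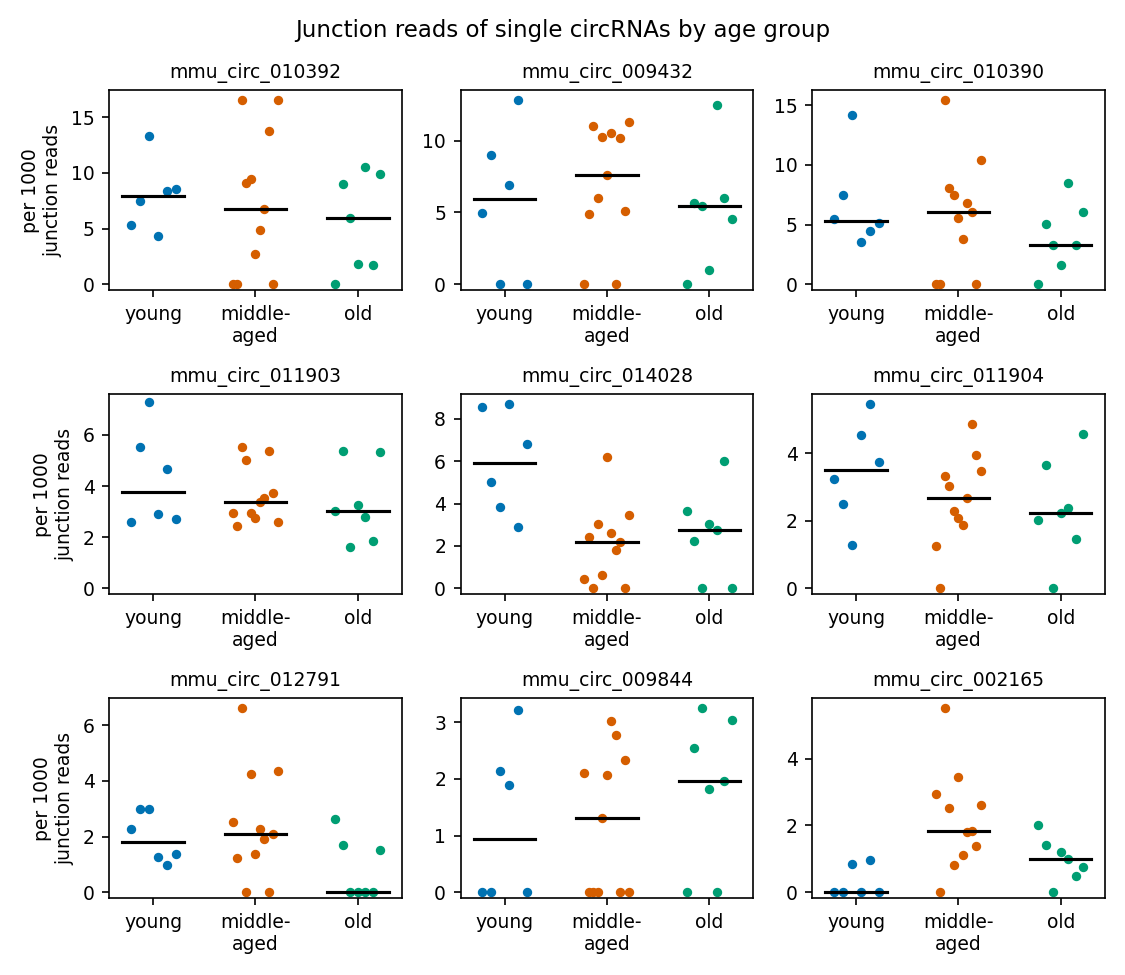
Junction reads per 1000 junction reads of the library (vertical axis, own scale in each panel) for 9 circRNAs, with 1 point per library and a line at the median of each age group. Groups overlap in every panel, and medians of mmu_circ_014028 are 5.91, 2.18 and 2.77 and those of mmu_circ_002165 are 0, 1.84 and 0.990 in young, middle-aged and old.

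With the lower minimum of 10 reads in at least 3 libraries, 202 circles of 5 to 7 exons were tested among 1510 circRNAs. For middle-aged against young, 1 of the 202 passed, against 0.397% of all. This was the 7-exon circle of 944 nt at chr12:30108128-30136429, with exons of 129, 92, 207, 70, 142, 207 and 97 nt, whose reads numbered 29, 0, 0, 35, 19 and 9 in the young libraries aged 0.005, 4.06, 6.0, 0.03, 2.8 and 0.003 years. In the middle-aged it had 10 reads in 3 of 11 libraries and in the old 5 reads in 2 of 7. In reads per 1000 the young ran from 0 to 4.68 (median 3.06), the middle-aged from 0 to 1.00 (median 0) and the old from 0 to 1.63 (median 0). The 4 young libraries with reads were those of the 4 youngest monkeys. The log2 fold change was -3.34 ± 0.76 (SE; edgeR adjusted p = 0.00623) for middle-aged and -3.18 ± 0.91 (edgeR adjusted p = 0.0857) for old against young. Of its 15 zeros, 1 had reads on another exon list. That library was old, and with the lists summed the junction held 30 reads in 3 old libraries, up to 5.08 reads per 1000, above the highest young library.

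For old against middle-aged, 1 of the 202 passed, against 0.464% of all. It was a 5-exon circle of 444 nt at chr18:51609738-51624153, with 13 reads in 3 libraries, which were 5 and 6 reads in 2 old libraries, 0 in all middle-aged and 2 in 1 young. The call rests on 2 old libraries, 5 of the zeros had reads on another exon list, and the adjusted p was 0.0571 (edgeR) when no minimum of libraries was set. Without the old libraries this circle had 2 reads in 1 library, so it met the minimum of this fit only through the old. The call therefore cannot stand as support for a difference. For old against young, 0 of the 202 passed, against 0.0% of all, and 24 (11.9%) had an unadjusted p under 0.05 by edgeR, against 11.3% of all 1510. The smallest p among the higher ones were those of a 342-nt circle of the junction of mmu_circ_012791 (0 reads in the young, 26 in 3 old libraries, edgeR adjusted p = 0.0529, with reads on another exon list in 18 of its 19 zeros) and of a 481-nt circle at chr5:77486631-77514747 (2 reads in 1 young and 28 reads in 5 old libraries, edgeR adjusted p = 0.0920). Besides the circle on chromosome 12, the smallest p among the lower ones was that of a 756-nt circle at chr7:113238549-113260470, with 9 reads in 3 young libraries and 0 in the old (edgeR adjusted p = 0.0920).

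When no minimum of libraries was set, 0 of 233 circles passed for old against young, 2 for middle-aged against young and 0 for old against middle-aged, against 0.0%, 0.375% and 0.0% of all 1601 tested. Beside the circle of 944 nt, the other was a circle of 396 nt at chr7:118666449-118673282, with 13 reads in 2 young libraries and 0 in all others (edgeR adjusted p = 0.0420). It met the minimum of 10 reads through the young libraries alone, so this call cannot stand as support for a difference. When the exon lists of a junction were summed and junctions of 10 or more reads in 3 or more libraries were tested, an alternative chosen after seeing the data, 1, 3 and 2 of 212 junctions passed in the same order, against 0.327%, 0.524% and 0.982% of all 1528. Between middle-aged and young these were the junction at chr12:30108128-30136429, at a log2 fold change of -3.33 ± 0.71 (SE; edgeR adjusted p = 0.00294), the junction at chr5:77486631-77514747, at 3.46 ± 0.94 (edgeR adjusted p = 0.0466), and a junction at chr7:164257962-164262737. The chromosome 5 junction had 2 reads in 1 of 6 young libraries (0 to 0.253, median 0 reads per 1000), 58 reads in 6 of 11 middle-aged (0 to 3.18, median 0.503) and 28 reads in 5 of 7 old (0 to 3.80, median 0.609). The junction on chromosome 7 had 18 reads in 3 young libraries, 1 of which lay at 4.09 reads per 1000, and 0 in the middle-aged and the old. It also passed between old and young (edgeR adjusted p = 0.0412). It met the minimum of 10 reads in 3 libraries through the young alone, so neither call can stand as support for a difference. Between old and middle-aged there were a junction at chr4:35350608-35374381, with 38 reads in 3 old and 7 reads in 3 middle-aged libraries (edgeR adjusted p = 0.0338), and a junction at chr5:694018-730798, with 8 reads in 2 old and 0 in the middle-aged (edgeR adjusted p = 0.0467). In each of these last 2 junctions the median of the old libraries was 0. The junction at chr5:694018-730798, with 13 reads in all, would not have met the minimum of 10 reads without its old libraries. Its call therefore cannot stand as support for a difference either.

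To see where circles of 5 to 7 exons differed from shorter and longer ones, 6 measures were compared within each library, with p-values adjusted over the 12 comparisons. Libraries share many of the same circles, so the 12 p-values measure how steady a difference was over libraries. They do not measure the spread among circles, which matters most for exon and intron lengths. A circle of 5 to 7 exons had on average 2.39 ± 0.525 reads in a library that listed it (SD, n = 24), one of 8 or more exons 1.76 ± 0.392 and one of 3 or 4 exons 2.48 ± 0.630. The difference from 8 or more exons, 0.624 reads, had the same direction in 24 of 24 libraries (sign-flip permutation test, adjusted p = 0.00012), and that from 3 or 4 exons, -0.0882 reads, was within the spread between libraries (permutation p = 0.202, adjusted p = 0.303). With all exonic circles of a library, also those of 1 read over the 24, the latter was -0.214 reads and lower in 20 of 24 libraries (permutation test, adjusted p = 0.00072). A single read supported 60.8% ± 6.60 of the circles in a library (SD, n = 24), a difference of -6.44 percentage points from 8 or more exons (lower in 20 of 24 libraries, permutation test, adjusted p = 0.00016). It was 2.76 points more than with 3 or 4 exons (higher in 18 of 24, permutation test, adjusted p = 0.00202). When only circles with an Ensembl host were used, neither of these 2 differences in single-read circles passed the threshold.

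Exons averaged 127 ± 6.81 nt in circles of 5 to 7 exons (SD, n = 24) and 134 ± 6.45 nt in those of 3 or 4, a difference of -6.91 nt with the same sign in 22 of 24 libraries (permutation test, adjusted p = 0.00018). Against 126 ± 7.37 nt with 8 or more exons the difference was 0.879 nt (permutation test, adjusted p = 0.554), but with Ensembl hosts only it was -4.91 nt (permutation test, adjusted p = 0.0360). The median shorter flanking intron was 5557 ± 699 nt (SD, n = 24) beside circles of 5 to 7 exons and 4798 ± 475 nt beside those of 3 or 4, longer by 759 nt and in 21 of 24 libraries (permutation test, adjusted p = 0.00012). The size of this difference depended on the setting. With all exonic circles of a library it was 273 nt, longer in 18 of 24 libraries (permutation test, adjusted p = 0.0100). Without the 6 libraries with the fewest reads it was 871 nt. Beside circles of 8 or more exons the median shorter flanking intron was 5475 ± 1965 nt, and the difference of 82.1 nt did not pass (permutation test, adjusted p = 0.940). The longer flanking intron, at 13970 ± 1407 nt, did not differ beyond the threshold from 13433 ± 1652 nt at 3 or 4 exons or 15343 ± 3206 nt at 8 or more (permutation tests, adjusted p = 0.149 for both). The percentage of circles with an Ensembl host, 36.5% ± 5.26, did not differ beyond the threshold from either class (permutation tests, adjusted p = 0.554 for both).

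The libraries of approximately 100000000 reads gave 60704 junction reads for the monkey aged 0.005 years and 35205 for the monkey aged 40.1 years. Of the 1468 circles, 670 (45.6%) had reads in the first and 585 (39.9%) in the second, and 860 (58.6%) in at least 1 of them. Detection followed the reads in the 24 libraries, with 43.4% of the 613 circles of 2 reads, 81.5% of the 233 circles of 10 or more reads and all 20 of the widely seen circles found again. They took 12.1% of the junction reads in the young library (95% Wilson interval 11.8% to 12.3%) and 11.7% in the old (11.3% to 12.0%), intervals that cover counting error only. With every circle of 5 to 7 exons counted, also those outside the 1468, the shares were 17.9% and 16.1%. Another 653 circles of 5 to 7 exons had 2 or more reads in these libraries and 0 in the 24.

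Levels in depth were set beside those of the library of the same age among the 24 for the 7 circles with the highest mean levels. They were lower in depth for 6 of the 7 in the young and 5 of the 7 in the old, without replicates. mmu_circ_009432 was at 3.39 reads per 1000 in the in-depth young and 5.00 in the library of the same age, and at 6.65 and 5.63 in the old. mmu_circ_014028 was at 5.27 and 8.54 in the young and 1.48 and 2.25 in the old, so the young stood above the old at either depth in these single libraries. The circle of 944 nt on chromosome 12 had 225 reads in the in-depth young and 15 in the in-depth old library. Whether the in-depth libraries are of the same animals as the libraries of the same age is not stated in the labels, so they are not counted as an independent check.

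The start of mmu_circ_014028 on chromosome 4 was shared by a circle that was rare in the 24 libraries and abundant in depth. The 5-exon circle of 327 nt at chr4:53822249-53842943 was made of the first 5 exons of mmu_circ_014028, of 72, 66, 84, 60 and 45 nt. Among the 24 libraries it had 9 and 22 reads in 2 old libraries and was not listed in the others, but it had 364 reads in the in-depth young library, the most of any circle of 5 to 7 exons among the 1468, and 101 in the in-depth old library. In the library of the same age among the 24 it had 0 reads in the young and 9 in the old, which was 2.54 reads per 1000 against 2.87 in depth. A circle with a sixth exon of 45 nt, 372 nt long at chr4:53822249-53863447, had 194 reads in the in-depth young library, and its junction was listed in none of the 24. In the in-depth young library the 5-exon circle of 469 nt at chr9:50420096-50435842 had 298 reads, against 50 reads in 2 of the 24 libraries and 0 in the in-depth old library. In the in-depth old library mmu_circ_009432 and mmu_circ_010392 led, with 234 and 215 reads.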

How the data were processed

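Total RNA (5 µg) of vastus lateralis was digested with 20 U RNase R for 15 min, and libraries were made without poly(A) selection. The authors trimmed reads with cutadapt, aligned them to rheMac2 with TopHat2 2.0.14 and Bowtie2 2.2.4, assembled linear transcripts with Cufflinks 2.2.1, called circRNAs with CIRCexplorer, and deposited 1 file per library with raw counts of junction reads, exon sizes, type and host transcript of each circRNA. The counts are not normalized, and circRNAs without reads are not listed and were set to 0. An exon list comes from the transcripts assembled for that sample. Coordinates are rheMac2, counted from 1. Identifiers of the form mmu_circ were matched on junction and exon structure to the study's list. No other value of that list was used.

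Members had circ_type circRNA and 5 to 7 exons. The members and lists were chosen with earlier results of these data known. Library size was the total of junction reads. edgeR 4.0.16 in R 4.3.3 (quasi-likelihood, robust, 3 age groups in 1 fit, no covariates) was run on circRNAs that 12 or more libraries listed with 2 or more reads, Benjamini-Hochberg adjusted over all tested at 0.05, and its standard error is the log2 fold change divided by the square root of F. DESeq2 1.42.0, TMM, a minimum of 10 reads spread over 3 or more libraries or over any number, junctions in place of exon lists, 2 groups per fit, young monkeys without those under 1 year, and leaving out the 6 smallest libraries were alternatives. The fits were also run on simulated data and recovered only part of the changes set in, so a circle that was not called may still differ. Other values were compared with permutation tests in scipy 1.17.1 (Python 3.11.15, numpy 2.4.6, pandas 2.3.3, matplotlib 3.10.9), all two-sided, exact for age groups and with 100000 resamples over 24 libraries. Depth was 822 to 11561 junction reads per library, and intervals are 95% Wilson intervals and cover counting error only, since PCR copies were not separated. Each library is 1 monkey, so the monkey is the replicate.

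Named in full were the tested members with the 8 highest mean levels. Also named were the 3 members with the most reads outside that filter, the longest and the shortest, and the members past the threshold in the fit with a minimum of 10 reads and 3 libraries (without any, the 2 higher and 2 lower with the smallest p). The rule further took the 3 hosts with the most members, the 3 junctions with the most reads and several exon lists, and the 2 members with the most reads in each in-depth library. The junction of mmu_circ_009844, the junctions called with exon lists summed, the circles on chromosome 20 as a pair, the chromosome 4 circle of 372 nt and other tested members were named after their values were seen. The planned share of circles that begin at the second exon of the host was not computed, because the files give no exon number within the transcript, and lists of host genes were not used, because the files pair host transcripts with no symbol. Sequences were not used here, since no genome of this build was at hand.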

Additional observations from a re-analysis of the deposited data

Results flagged for a closer look

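Among 44 sets of values of single circRNAs within an age group, 5 had a highest library far from the others by Dixon's criterion. For normally distributed values chance would give about 2.2. These levels hold many zeros and come from unequal depths, so no excess over chance is read from the count. mmu_circ_010390 reached 14.16 reads per 1000 in the young monkey aged 6.0 years, with the next young library at 7.52. mmu_circ_008276 was at 2.387 in the young monkey aged 0.003 years, the next at 0.632. mmu_circ_003415 was at 1.002 in the young monkey aged 4.06 years, the next at 0.322. mmu_circ_003606 was at 1.972 in the old monkey aged 40.1 years, the next at 0.792. mmu_circ_003505 was at 1.084 in the old monkey aged 28.7 years, the next at 0.404. The high values of mmu_circ_003415 and mmu_circ_003505 came from libraries of 1996 and 1845 junction reads. Both lie below the share of 3 reads there (0.150% and 0.163%), and whether they differ from the others beyond counting and depth was not tested.

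In the in-depth libraries, which the comparisons of age did not use, 97 circles of 5 to 7 exons had reads above the 3 that a count of 0 allows although their junction was listed in none of the 24 libraries. Of these the 2 with the most reads are given. The 372-nt circle at chr4:53822249-53863447 had 194.0 reads, all in the young library, and a 7-exon circle of 998 nt at chr13:109412391-109437668 had 23.0, of which 21 were in the young and 2 in the old.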

How the results depend on the processing

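The number of circles of 5 to 7 exons was 3880 with a minimum of 1 read and 855 with 3. The difference between old and middle-aged turned positive, at 0.423 percentage points of share, without the 4 middle-aged libraries whose names carry an added F, and was -1.21 circles at equal depth without the library with the fewest reads (chosen after seeing the data). Neither passed a test, as in the main analysis. For middle-aged against young, members called rose from 0 to 1 with DESeq2 (0.459%) and with at least 10 reads in 3 libraries (0.397%). They rose to 2 with 10 reads in any number (0.375%). With junctions of at least 10 reads in 3 libraries, also chosen after seeing the data, they rose to 3 (0.524%). For old against middle-aged they rose to 1 with at least 10 reads in 3 libraries (0.464%) and 2 with such junctions (0.982%). For old against young they rose to 1 with such junctions (0.327%). Brackets give the share called among all tested. The counts include calls, described above, that met the read minimum only through the group with the higher level. The only call between old and young and the only circle called between old and middle-aged are among them. Such calls cannot stand as support for a difference. The cause of the rises was not tested.

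With all exonic circles of a library, reads per circle against 3 or 4 exons passed the test at -0.214, the longer flanking intron against 8 or more exons turned to 64.8 nt and the Ensembl share against 3 or 4 exons to -0.163 points. Without the 6 smallest libraries, the longer flanking intron against 3 or 4 exons passed at 882.25 nt. With Ensembl hosts only, single-read circles differed by 1.57 points from 3 or 4 exons and -3.85 from 8 or more and no longer passed, exon length against 8 or more exons turned to -4.91 nt (permutation test, adjusted p = 0.0360) and the shorter flanking intron to -38.5 nt. With means in place of medians, the longer flanking intron turned to -657 nt against 3 or 4 exons and 806 nt against 8 or more. The cause was not tested. Of the 101 values under alternatives that answer a comparison, 80 were labelled as unchanged. For tests this means the same direction and side of the threshold, and for counts an equal or similar number. Some could not change, because the libraries left out were of a group outside the comparison. The 80 therefore do not measure how robust the results are.

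No paired analysis was possible because the replicate numbers only follow the order of the samples and each monkey belongs to 1 age group. With 822 reads in the smallest library, a circle below 0.365% of reads cannot be counted reliably there.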
